A study of Mus musculus with 2 samples.

Results

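The cells described here are the colon CD8 T cells with at least 1 UMI (unique molecular identifier, 1 counted RNA molecule) of Mki67, the gene of the proliferation antigen Ki-67. They numbered 356 of 8562 cells, or 4.158%, and the other 8206 cells had 0 UMIs of the gene. In all, 388 Mki67 UMIs were counted: 328 of the 356 cells had exactly 1, 25 had 2, 2 had 3 and 1 had 4. The cells were chosen by their Mki67 count, which is given as a description only. They were isolated from the lamina propria of the colon in a transfer model of colitis, in Rag1 KO hosts, which lack T and B cells of their own. Hosts received wildtype naive CD4 T cells (CD4+, CD45RBhigh, CD25-) together with splenic CD8 T cells from Bcl6fl/fl Cd8aCre donors (hashtags labelled Crep, 4157 cells) or from Bcl6fl/fl donors (hashtags labelled Cren, 4405 cells). Crep and Cren were read as Cre-positive and Cre-negative, which no source spells out. Both genotypes carry loxP sites around part of Bcl6, the gene of a transcriptional repressor, and in the first Cre is under Cd8a control. Mice were 8 to 12 weeks old at transfer, and cells were taken 6 to 10 weeks later. Each group had 4 hashtags (antibody barcodes that mark the source of a cell), all pooled in 1 gene-expression library. Whether a hashtag stands for 1 mouse is not given, so p-values measure the spread between hashtags, which may be technical.

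Ki-67 coats mitotic chromosomes, and its gene is transcribed mainly in S, G2 and M phase, so it is a standard marker of cycling cells. A cycling T cell usually makes Mki67 RNA along with that of Top2a (topoisomerase II alpha, which untangles replicated DNA), Stmn1 (stathmin, which destabilises microtubules), Tyms (thymidylate synthase) and the mitotic cyclin and kinase genes. In the gut, activated CD8 T cells divide after antigen contact, while settled tissue-resident cells divide rarely.

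Many of these genes share promoter elements, which are shown for Mki67 and Top2a because Mki67 chose the cells and Top2a is another marker of the same phase. Mki67 lies on chromosome 7, 135689784 to 135716450, and Top2a on chromosome 11, 98992947 to 99024199 (GRCm38). The promoter windows run from 250 bases before the start of the gene to 50 after it (RefSeq, GRCm38.p6), at chr7:135716330-135716629 for Mki67 and chr11:99024140-99024439 for Top2a, both on the minus strand. Capitals mark TTTGAA, the core of the cell cycle homology element, and CCAAT, the core of the NF-Y site, each on either strand (TTCAAA and ATTGG).
Mki67: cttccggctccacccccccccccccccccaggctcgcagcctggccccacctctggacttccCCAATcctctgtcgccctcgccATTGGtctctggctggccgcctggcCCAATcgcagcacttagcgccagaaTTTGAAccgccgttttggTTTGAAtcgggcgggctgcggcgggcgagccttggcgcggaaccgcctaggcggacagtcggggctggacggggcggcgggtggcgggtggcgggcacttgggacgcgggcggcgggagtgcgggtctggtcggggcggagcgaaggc
Top2a: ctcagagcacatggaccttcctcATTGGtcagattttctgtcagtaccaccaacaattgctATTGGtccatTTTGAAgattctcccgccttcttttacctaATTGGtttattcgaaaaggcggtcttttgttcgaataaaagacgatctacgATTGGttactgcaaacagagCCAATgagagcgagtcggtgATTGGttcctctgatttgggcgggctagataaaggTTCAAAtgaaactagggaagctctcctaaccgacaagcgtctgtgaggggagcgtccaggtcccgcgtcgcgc
The Mki67 window held 2 copies of the first motif and 3 of the second, and the Top2a window held 2 and 6. Of 12 proliferation genes with a promoter in the table, 6 had both motifs, against 7.123% of all 27025 promoters. A match describes the letters in the window and is not evidence of binding.

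A UMI of Mki67 was found more often in deeply counted cells. The share of cells with one was 2.561% in the lowest of 10 equal bins of total UMIs per cell (658 to 1534) and 8.285% in the highest (4754 to 8495). Their median total was 3343 UMIs, against 2743 UMIs in all cells with 0 Mki67 UMIs. Each was therefore set beside the 5 cells with 0 Mki67 UMIs from its own hashtag that were nearest in total UMIs, 1780 cells with a median of 3340.5 UMIs. Summed per hashtag, the cells with an Mki67 UMI gave 86146 to 221753 UMIs and the matched cells 430658 to 1105575. Levels are given as CPM, UMIs of a gene per 1000000 UMIs of such a sum. No barcode occurred in more than 1 cell, and 2 of the 356 cells were among the 32 that 1 of the hashtag classifiers had called as carrying 2 hashtags.

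None of the other proliferation genes that could be tested differed from matched cells past the threshold. Pclaf, Birc5, Rrm2, Ccna2, Cdk1, Ccnb2, Nusap1 and Cenpf lay under the mean CPM of 10 that was asked for and were not tested. Most cells with an Mki67 UMI, like most matched cells, had no UMI of the rarely detected markers. The cells are therefore called by their Mki67 UMI and not "proliferating". Top2a was detected in 21 of 356 cells with an Mki67 UMI (5.899%, 95% Wilson interval 3.89 to 8.849) and in 107 of 1780 matched cells (6.011%, 4.999 to 7.213). Its level per hashtag had a low, median and high of 7.339, 22.34 and 34.84 CPM in cells with an Mki67 UMI, against 14.69, 16.87 and 24.35 CPM in matched cells. It was higher in 4 of 8 hashtags, with overlapping ranges (log2 fold change 0.14, SE 0.33, edgeR adjusted p = 0.977).

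Stmn1 had a low, median and high of 0, 30.28 and 50.05 CPM in cells with an Mki67 UMI, against 9.13, 18.39 and 25.33 CPM in matched cells. The level was higher in 6 of 8 hashtags, in all but Crep 4 and Cren 4 (log2 fold change 0.79, SE 0.30, unadjusted p = 0.00917, edgeR adjusted p = 0.613). These levels rest on 41 and 114 UMIs. Tyms was found in 9.27% of cells with an Mki67 UMI (6.677 to 12.73) and 5.73% of matched cells (4.743 to 6.908), and differed by 0.65 on the log2 scale (SE 0.32, edgeR adjusted p = 0.809). Neither gene passed the threshold of 0.05 over all genes.

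The genes of G2 and M phase were rarer still. Cdk1, the mitotic kinase, was found in 1.124% of cells with an Mki67 UMI and 1.067% of matched cells. Cyclin B2 (Ccnb2) was found in 1.685% and 1.573%, survivin (Birc5) in 1.966% and 1.124%, and the spindle gene Nusap1 in 0.5618% and 0.8989%. Ccna2, the S phase cyclin A2, was found in 0.8427% of cells with an Mki67 UMI (3 cells) and 0.3933% of matched cells (7 cells). All of these intervals overlap between the sets. Tuba1b, an alpha-tubulin gene that many cells express, was lower in 8 of 8 hashtags (log2 fold change -0.31, SE 0.10) but missed the threshold (edgeR adjusted p = 0.405).

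Joint detection was also sparse. Of the 11 proliferation markers found in under 10% of cells, other than Mki67, 269 of 356 cells with an Mki67 UMI (75.56%) had none, and 1420 of 1780 matched cells (79.78%) had none. At least 1 was found in 24.44% of cells with an Mki67 UMI and 20.22% of matched cells, and the share was higher in 6 of 8 hashtags. At least 3 were found in 8 cells with an Mki67 UMI (2.247%) and 13 matched cells (0.7303%). At least 4 were found in 0 cells with an Mki67 UMI and 3 matched cells (0.1685%), too few to tell apart.

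**Figure D1:**
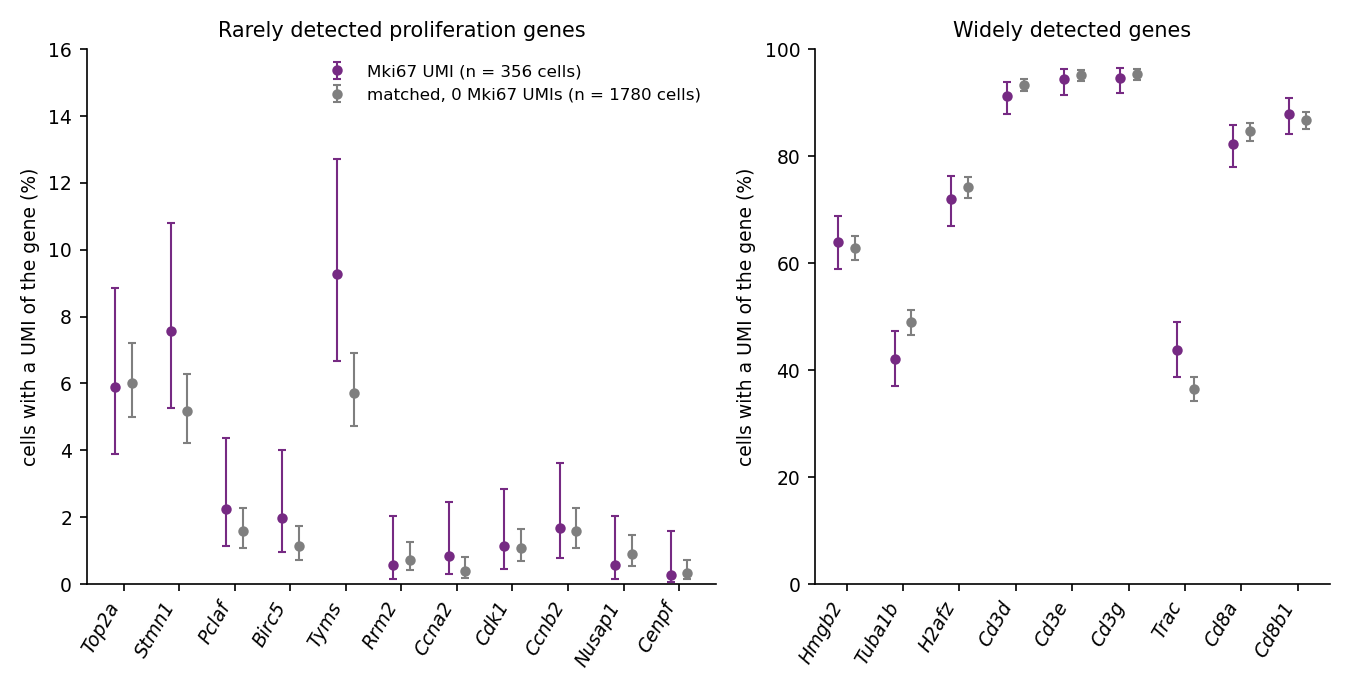
Share of cells with a UMI of each proliferation gene and of CD8 T cell genes (y axis, percent of cells) in 356 cells with an Mki67 UMI (purple, left of each pair) and 1780 cells with 0 Mki67 UMIs matched for total UMIs (grey). Bars are 95% Wilson intervals over cells, which cover counting error only. Top2a sits at 5.899% and 6.011%, and Tyms shows the widest gap of the rare genes, at 9.27% and 5.73%.

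The longer cell cycle lists held no call either. Of 47 S phase genes tested, 27 had a positive and 20 a negative log2 fold change, with a median of 0.04, against a median of -0.01 over all 7456 genes tested. None passed an edgeR adjusted p of 0.05, which 9 genes of all those tested did (0.121%). Of 42 G2 and M phase genes, 18 were positive and 24 negative (median -0.02), and 0 passed. At an unadjusted p under 0.05, 1 S phase gene (Tyms) and 2 G2 and M phase genes had higher levels and 0 had lower ones, against 2.44% of all genes higher and 3.45% lower. The summed S phase level over 99 genes had a low, median and high of 1779, 1920 and 2211 CPM in cells with an Mki67 UMI, against 1770, 1853 and 2063 CPM in matched cells. For G2 and M (126 genes) these were 2892, 3018 and 3316 CPM, against 2847, 3037 and 3195 CPM. Each sum was higher in about as many hashtags as it was lower, 5 of 8 for S phase and 4 of 8 for G2 and M.

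Among 16 mitotic tubulin and small chromatin protein genes, 5 were positive and 11 negative (median -0.06), and 0 passed. At an unadjusted p under 0.05, 3 of them were higher, Stmn1, the histone variant gene H2afv (log2 fold change 0.29, edgeR adjusted p = 0.606) and the nucleosome-binding gene Hmgn2 (0.22, edgeR adjusted p = 0.838), the last named after its values were seen, and Tuba1b was lower. Genes that govern cell cycle entry were likewise split, with 12 of 20 positive (median 0.05) and 0 passing. Rbl2, a pocket protein that holds cells out of the cycle, had a log2 fold change of 0.36 (edgeR adjusted p = 0.762), and the retinoblastoma gene Rb1 had 0.39 (edgeR adjusted p = 0.862). Of 18 histone genes tested 8 were positive and 10 negative (median -0.05), and 0 passed.

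CD8 T cell genes were found in most of these cells. Cd3e, a chain of the T cell receptor complex, was found in 94.38% of cells with an Mki67 UMI and 95.22% of matched cells, Cd8b1 in 87.92% and 86.8%, and Cd8a in 82.3% and 84.66%. Trac, the constant segment of the receptor alpha chain, was found in 43.82% (38.76 to 49.01) and 36.46% (34.26 to 38.72), while its level had a log2 fold change of 0.13 (edgeR adjusted p = 0.939). Of the markers of other cells, 3 for CD4 and regulatory T cells, 6 for gamma-delta T, NK and innate lymphoid cells, 7 for myeloid, B and plasma cells and 1 for other tissue cells could be tested, and 0 passed. Cd4 was found in 1.124% of both sets, Cd74, the class II invariant chain, in 22.75% and 21.35%, and the lysozyme gene Lyz2 in 14.89% and 13.76%. Itgax, the CD11c gene, which activated CD8 T cells also express, was found in 24.16% (20 to 28.86) and 19.38% (17.61 to 21.28), and was higher in 8 of 8 hashtags (log2 fold change 0.51, unadjusted p = 0.00189, edgeR adjusted p = 0.287). Tcrg-C1, a gamma chain constant segment, had a log2 fold change of 1.06 (edgeR adjusted p = 0.741), higher in 4 of 8 hashtags. Among genes too low to test, Cd40lg, the CD40 ligand gene, was found in 1 cell with an Mki67 UMI (0.2809%) and 21 matched cells (1.18%). The immunoglobulin gene Igkc was found in 3 cells with an Mki67 UMI (0.8427%, 0.287 to 2.448) and 1 matched cell (0.05618%, 0.009918 to 0.3175). Foxp3 and Csf1r, which define regulatory T cells and macrophages, were found in 0 of 356 cells with an Mki67 UMI and in 5 and 7 matched cells. By the limit of 3 counts, 0 of 356 allows up to 0.843% of cells with a UMI, and says nothing about cells that express a gene without a UMI. Summed over the 11 detected myeloid, B and plasma cell genes, the level was 204.6 to 523.1 CPM in cells with an Mki67 UMI and 277.9 to 360.6 CPM in matched cells. Lyz2, a myeloid gene that T cells should lack, was seen in 13.89% of all 8562 cells, and Mki67 in 4.158%. The part of free RNA in the droplets in these detections was not tested.

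The threshold of 1 UMI separates the just-included cells from the just-excluded ones. The 328 cells with exactly 1 Mki67 UMI had 21.53 CPM of Top2a, 26.7 CPM of Stmn1, 29.28 CPM of Tyms and 62.87 CPM of Pcna, the replication clamp. The 8206 cells with 0 had 16.18, 14.09, 18.73 and 54.06 CPM of these genes. The 28 cells with 2 or more UMIs had 9.156 CPM of Top2a, 91.56 CPM of Stmn1, 18.31 CPM of Tyms and 64.09 CPM of Pcna, on only a few UMIs of each gene. Hmgb2, a widely detected chromatin protein gene, had 531.1 CPM in the 28 cells, 343.6 CPM in those with 1 and 344.6 CPM in those with 0. These sets differ in depth, with medians of 3954.5 UMIs per cell for 2 or more, 3290 for 1 and 2743 for 0.

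Outside the cell cycle, few genes differed between cells with an Mki67 UMI and their matched cells. Of 7456 genes tested with Mki67 left out, 9 passed an edgeR adjusted p of 0.05, a background of 0.121%, with 2 higher (0.0268%) and 7 lower (0.0939%). At an unadjusted p under 0.05 there were 439 genes (5.89%). Dusp1 was higher, as was the receptor segment Trbv26. Lower were 5 ribosomal protein genes, the ribonucleoprotein gene Nop10 and the chemokine gene Ccl3. The count was 0 without Crep 4, 3 without Crep 3, 16 without Cren 1, 2 without Cren 2 and 5 without Cren 3, and 0 with DESeq2 or without the hashtag as a block. Trbv26 and Ccl3 fall outside the rule for named genes and were chosen after their values were seen.

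Dusp1 (chromosome 17, 26505591 to 26508472), an early-response phosphatase gene that switches off MAP kinases, was the steadiest of these. It had a low, median and high of 336.8, 549.7 and 764 CPM in cells with an Mki67 UMI, against 150.9, 453.3 and 600.2 CPM in matched cells. The ranges overlap, yet within each of 8 hashtags the cells with an Mki67 UMI were the higher ones. Its mean was 554 ± 144 CPM in cells with an Mki67 UMI and 412 ± 139 CPM in matched cells (SD, n = 8 each; log2 difference 0.39, SE 0.07, edgeR adjusted p = 0.00784). It passed in 7 of 8 fits that left out a hashtag, the exception being Crep 4 (adjusted p = 0.0631), and in 12 of 16 other settings. The early-response list around it, which holds the AP-1 genes, had 17 of 24 positive (median 0.10), and Dusp1 was the 1 that passed. The whole list summed to a low, median and high of 9259, 12230 and 14210 CPM in cells with an Mki67 UMI, against 7623, 10800 and 12920 CPM in matched cells, and was higher in 6 of 8 hashtags.

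Trbv26 (chromosome 6, 41227525 to 41227913) encodes a variable segment of the T cell receptor beta chain, so its level follows which clones the cells belong to. It had a low, median and high of 0, 47.33 and 132 CPM in cells with an Mki67 UMI, against 0.9045, 14.4 and 67.35 CPM in matched cells. The log2 fold change was 1.28 (SE 0.26, edgeR adjusted p = 0.0113), on 65 and 134 UMIs. Of the 65, 29 were in Cren 1, and the number of cells that held them is not given here. Trbv26 was higher in 6 of 8 hashtags. In the other 2, Crep 2 and Cren 3, cells with an Mki67 UMI had 0 UMIs of it. Without Cren 2 or Crep 4 the adjusted p was 0.0992 or 0.116. With 1 matched cell in place of 5, the log2 fold change was 0.03 (adjusted p = 0.997), and matched within fine clusters it was 1.17 (adjusted p = 0.244).

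The ribosomal protein genes lay lower together. Of 82 tested, 80 had a negative log2 fold change (median -0.12, against -0.01 over all genes), 53 were lower at an unadjusted p under 0.05 (3.45% of all genes were), and 5 passed, among them Rps20, Rpl15, Rps16 and Rplp0. This list was added after the values were seen, and reads of its many near-identical pseudogenes may be counted with these genes. The largest of the 5 changes was in Rpl15 (chromosome 14, 18267823 to 18270986), a protein of the large subunit. Its low, median and high were 1266, 1661 and 2213 CPM in cells with an Mki67 UMI, against 1630, 1855 and 2451 CPM in matched cells, and it was lower in 8 of 8 hashtags (log2 fold change -0.23, SE 0.05, edgeR adjusted p = 0.0113). Rps20, of the small subunit, and Rplp0, the stalk protein, were lower in 8 of 8 hashtags, and Rps16, also of the small subunit, in 7 of 8. Rps20 had a log2 fold change of -0.20, Rps16 -0.18 and Rplp0 -0.15. With a hashtag left out, all 5 passed without Cren 1, and each passed in 1 to 3 of the 8 such fits, with adjusted p of up to 0.351. Without TMM scaling the split of calls moved from 2 higher and 7 lower to 2 higher and 0 lower, and the 5 genes had adjusted p of 0.0956 to 0.39.

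The ribosomal share of a cell's UMIs is a measure that needs no scaling. It averaged 20.16% ± 2.326 in cells with an Mki67 UMI and 21.32% ± 2.01 in matched cells (SD, n = 8 hashtags), a difference of -1.157 percentage points. Per hashtag it ran from 17.84% to 25.29% with a median of 19.57% in cells with an Mki67 UMI, against 19.42% to 25.95% with a median of 20.94% in matched cells. In each of the 8 hashtags it was lower in cells with an Mki67 UMI (exact two-sided sign-flip permutation p = 0.00781, the smallest 8 pairs allow; adjusted over 3 measures, 0.0117). Matched within fine clusters, the difference was -0.5885 points (exact p = 0.0234), and the 5 ribosomal genes no longer passed. Matched on UMIs outside the ribosomal genes in place of all UMIs, it was -0.8762 points (exact p = 0.0312), and again the 5 genes did not pass. The number of genes per cell was 1470 ± 127.8 in cells with an Mki67 UMI and 1447 ± 133 in matched cells, higher in 8 of 8 hashtags by 23.0 on average (exact p = 0.00781; adjusted, 0.0117). Mki67 itself adds 1 of these genes, and with the matching on non-ribosomal UMIs the difference was 9.096 genes (exact p = 0.102). The mitochondrial share was 0.7809% in cells with an Mki67 UMI and 0.7435% in matched cells (exact p = 0.172).

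**Figure D2:**
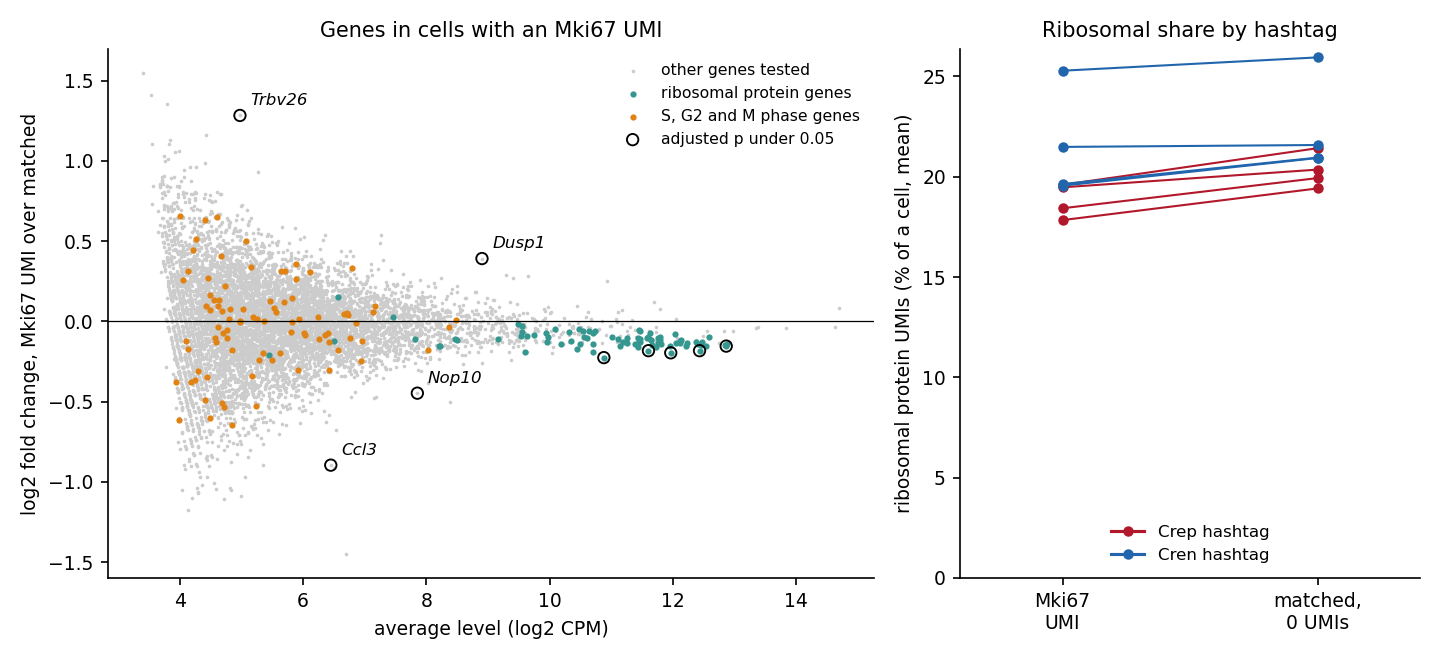
Left, log2 fold change (cells with an Mki67 UMI over matched cells, y axis) against average level (log2 CPM, x axis) for 7456 genes. Ribosomal protein genes are green, S, G2 and M phase genes orange, and circles mark the 9 genes with an edgeR adjusted p under 0.05. Right, mean ribosomal share of UMIs per cell (y axis, percent) in both sets, 1 line for each of 8 hashtags. The orange points scatter about 0, most green points lie just under it, and all 8 lines run lower at the Mki67 end.

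Growth and metabolism genes had mostly negative values, while 47.61% of all genes tested were positive. The lean was not particular to them: 19 of 27 cytoskeleton, S100 and annexin genes (median -0.04) and 13 of 18 T cell receptor genes were negative. Of 23 ribosome biogenesis genes, 16 were negative (median -0.19) and 1 passed. That was Nop10 (chromosome 2, 112261926 to 112262898), a component of the particles that modify ribosomal RNA. It had a low, median and high of 146.8, 187.7 and 209 CPM in cells with an Mki67 UMI, against 211.1, 232.6 and 278.5 CPM in matched cells, the lowest matched hashtag lying just above the highest of the other set. The log2 fold change was -0.45 (SE 0.10, edgeR adjusted p = 0.0464), and in each of 8 fits that left out a hashtag the adjusted p was 0.05 or higher, up to 0.183. Nucleotide and one-carbon synthesis had 20 of 24 negative (median -0.11), glycolysis 12 of 14 (median -0.11), heat shock and chaperone genes 18 of 20 (median -0.07) and oxidative phosphorylation 33 of 43 (median -0.05), with 0 passing in each. Gapdh, a glycolytic enzyme gene, had a log2 fold change of -0.12 (edgeR adjusted p = 0.529) and Pgam1, another, -0.47 (edgeR adjusted p = 0.207). Prps1, which starts purine and pyrimidine synthesis, had -0.76 (edgeR adjusted p = 0.762).

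Ccl3 (chromosome 11, 83647843 to 83649378), a chemokine gene of activated T cells that is in none of the lists, was the remaining call. It had a low, median and high of 20.65, 52.68 and 80.73 CPM in cells with an Mki67 UMI, against 24.35, 63.31 and 200.6 CPM in matched cells, with overlapping ranges. It was lower in 6 of 8 hashtags (log2 fold change -0.90, SE 0.21, edgeR adjusted p = 0.0464). Without Crep 1, Crep 2, Crep 4, Cren 1 or Cren 2 the adjusted p was 0.0686 to 0.507. Xcl1, a chemokine gene of activated CD8 T and NK cells, had the most negative value of the named genes, -1.45 (SE 0.30), was lower in 8 of 8 hashtags and missed the threshold (edgeR adjusted p = 0.103).

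Of 21 residency and homing genes, 16 were positive (median 0.10) and 0 passed. Their sum was higher in 8 of 8 hashtags, with a low, median and high of 4554, 5978 and 7023 CPM in cells with an Mki67 UMI, against 4338, 5279 and 5843 CPM in matched cells. Rgs1, a regulator of chemokine signalling that is abundant in resident cells, is counted in this sum and lay closest to the threshold. Its level was 2113 ± 365 CPM in cells with an Mki67 UMI and 1737 ± 341 CPM in matched cells (SD, n = 8 each). It was higher in 6 of 8 hashtags (log2 difference 0.25, edgeR adjusted p = 0.0778). Cytotoxic genes (9 of 23 positive), stem-like genes (7 of 16), exhaustion genes (8 of 16), interferon response genes (12 of 20) and T cell receptor genes (5 of 18) had 0 passing, with medians from -0.07 to 0.03. Nkg7, a granule protein gene, had -0.10 (edgeR adjusted p = 0.762), and the stem-like factor gene Tcf7 had -0.05 (edgeR adjusted p = 0.980).

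The cells with an Mki67 UMI were spread over all 12 fine clusters of the authors' annotation, and no cluster held more than 15.45% of them. Cluster 3 held the most (55 cells), then cluster 0 (47) and cluster 6 (46), and cluster 11 held 1. Because the clusters were built from the genes of these same cells, the shares are given without a test, beside the number expected from the total UMIs of each cluster's cells. Most clusters lay near it: clusters 0, 1, 2, 4 and 7 had 3.288% to 3.558% of cells with an Mki67 UMI, at 0.7843 to 0.9231 times expectation, and clusters 3, 5 and 8 had 4.192% to 5.074%, at 1.042 to 1.186 times. Cluster 6 had 46 of 716 cells (6.425%, 95% Wilson interval 4.851 to 8.463), 1.417 times expectation. Cluster 10 had 7 of 112 (6.25%, 3.06 to 12.34), all 7 in Cren, and cluster 11 had 1 of 73.

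Cluster 9 stood apart, with 11 of 119 cells (9.244%, 5.24 to 15.8) where 3.569 were expected, a ratio of 3.082. These cells were shallow, with a median of 1007 UMIs and 658 genes, a ribosomal share of 5.579% and a mitochondrial share of 2.04%. Each of the 11 had 1 Mki67 UMI, and the cluster's Mki67 level was 63.37 CPM. On a few UMIs each, its Top2a level was 5.761 CPM, the lowest of the 12 clusters, and its Tyms level 28.8 CPM, the highest. The 11 cells came from 6 hashtags: 1, 0, 4 and 1 in Crep 1 to 4, and 0, 2, 2 and 1 in Cren 1 to 4. The part of RNA quality in these detections was not tested. Without cluster 9 in either set, matched anew, Dusp1 and Trbv26 were the 2 genes that passed, 0 genes were lower at the threshold, and the ribosomal share differed by -0.9662 points (exact p = 0.00781).

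**Figure D3:**
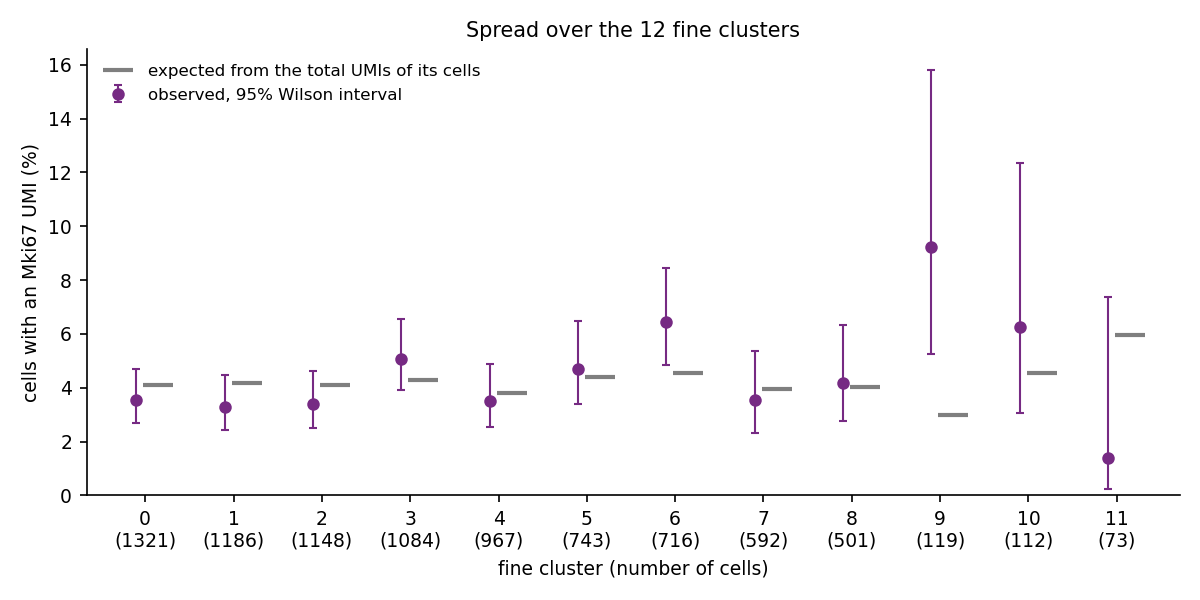
Share of cells with an Mki67 UMI (y axis, percent) in each of the 12 fine clusters (x axis, with the number of cells). Purple points are observed shares with 95% Wilson intervals, and grey dashes the share expected from the total UMIs of the cluster's cells. The intervals of clusters 6 and 9 lie wholly above their dashes, cluster 9 farther, at 9.244%, while clusters 0 to 5, 7 and 8 lie close to theirs.

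The share of cells with an Mki67 UMI did not separate the groups. The 4 Crep hashtags had 48 of 1019, 37 of 1091, 43 of 1001 and 33 of 1046 cells, or 4.711%, 3.391%, 4.296% and 3.155%. The 4 Cren hashtags had 55 of 1305, 43 of 1105, 61 of 1095 and 36 of 900 cells, or 4.215%, 3.891%, 5.571% and 4.0%. The ranges overlap, with Cren 3 the highest and Crep 4 the lowest. The mean was 3.888% ± 0.7364 in Crep and 4.419% ± 0.7794 in Cren (SD, n = 4), a difference of -0.5311 points (exact two-sided permutation p = 0.371; 4 against 4 can reach 0.0286). Thinned to 2000 UMIs per cell, which left out 986 Crep and 937 Cren cells with fewer, the means were 2.648% and 2.729% (exact p = 0.829). The mix was also held fixed by giving clusters 0, 1, 2, 3 and 6 equal weight, with cells of the other clusters left out. The means were then 3.671% ± 1.02 in Crep and 5.105% ± 0.4322 in Cren (exact permutation p = 0.0571). Within single clusters the shares went both ways. They were 2.147% in Crep and 4.933% in Cren in cluster 0, 2.18% and 3.785% in cluster 1, and 1.892% and 4.113% in cluster 2. In cluster 6 they were 7.463% in Crep and 5.512% in Cren, and in cluster 5, which was not in the fixed mix, 7.308% and 3.313%. These single-cluster shares were not tested.

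**Figure D4:**
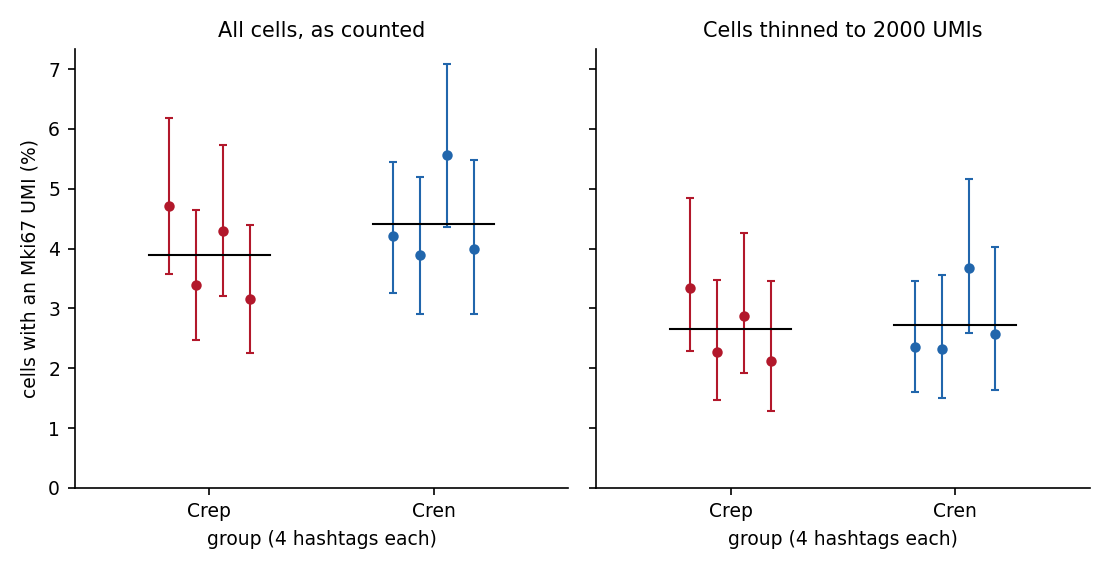
Share of cells with an Mki67 UMI (y axis, percent) in each of 4 Crep (red, left) and 4 Cren (blue) hashtags, for all cells as counted and after thinning each cell to 2000 UMIs. Bars are 95% Wilson intervals over cells, and black lines group means. The groups overlap in both panels, with means of 3.888% and 4.419% as counted and 2.648% and 2.729% after thinning.

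Among the cells with an Mki67 UMI, gene levels in Crep and Cren hashtags were compared next, the targeted gene first. Bcl6 (chromosome 16, 23965050 to 23988866) had 46.82, 51.23, 36.69 and 11.61 CPM in Crep 1 to 4, against 31.85, 41.3, 18.04 and 22.73 CPM in Cren 1 to 4, overlapping ranges on 42 UMIs in all (log2 fold change 0.47, SE 0.46, edgeR adjusted p = 0.935). The 5′ counts of a gene do not show whether its floxed part was deleted. Of 5623 genes tested, 6 passed, a background of 0.107%: the killer-cell genes Klrg1 and Nkg7 and the gene Phf21a were higher in Crep (3 genes, 0.0534%), and Trat1, Zfp36l1 and Rps26 were lower (3 genes, 0.0534%). At an unadjusted p under 0.05 there were 386 genes (6.86%). These values rest on 161 Crep and 195 Cren cells, and the count of calls was 18 without Crep 1, 2 without Crep 2, 20 without Crep 4 and 22 without Cren 3. The cells of the groups lay in different clusters, with 20 Crep cells and 1 Cren cell in cluster 7, 26 and 8 in cluster 4, and 34 and 21 in cluster 3. Clusters 8, 1 and 2 held 2, 8 and 7 Crep cells, against 19, 31 and 32 Cren cells. The part of this mix in the differences between Crep and Cren described next was not tested.

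Klrg1 (chromosome 6, 122270596 to 122282833), an inhibitory lectin-like receptor of terminally differentiated effector cells, had 228.9, 351.3, 183.5 and 360 CPM in Crep 1 to 4, against 122.9, 82.6, 153.4 and 45.46 CPM in Cren 1 to 4. All 4 Crep values lie above every Cren value (log2 fold change 1.31, SE 0.26, edgeR adjusted p = 0.0214). Without Crep 2 or Cren 2 the adjusted p was 0.169 or 0.0756. Nkg7 (chromosome 7, 43437138 to 43438246), which is needed for granule release, had 3236, 3360, 3214 and 3716 CPM in Crep, against 2111, 1886, 2765 and 1834 CPM in Cren, again with no overlap. Its log2 fold change was 0.62 (SE 0.13, edgeR adjusted p = 0.0246), and without Crep 2, Crep 3, Cren 1 or Cren 2 the adjusted p was 0.0518 to 0.169. Phf21a (chromosome 2, 92183751 to 92364667), a subunit of a histone demethylase complex, had 72.84, 73.19, 110.1 and 104.5 CPM in Crep, against 22.75, 41.3, 13.53 and 22.73 CPM in Cren (log2 fold change 1.82, SE 0.39, edgeR adjusted p = 0.0246). It rests on 48 UMIs in Crep and 17 in Cren and passed in 3 of 8 fits that left out a hashtag, with adjusted p of 0.0568 to 0.105 without Crep 2, Crep 3, Cren 1, Cren 3 or Cren 4.

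Trat1 (chromosome 16, 48730774 to 48810547), an adaptor that stabilises the T cell receptor at the surface, was lowest in Crep relative to Cren. It had 26.01, 36.6, 14.68 and 23.23 CPM in Crep, against 109.2, 144.5, 121.8 and 106.1 CPM in Cren, groups that lie far apart (log2 fold change -2.23, SE 0.36, edgeR adjusted p = 0.000621). Zfp36l1 (chromosome 12, 80107760 to 80113013), an RNA-binding protein that promotes the decay of cytokine and cell cycle messages, had 140.5, 139.1, 183.5 and 220.6 CPM in Crep, against 268.5, 571.3, 351.9 and 477.4 CPM in Cren. The log2 fold change was -1.32 (SE 0.22, edgeR adjusted p = 0.000891), and both genes passed in 8 of 8 fits that left out a hashtag. Rps26 (chromosome 10, 128624529 to 128626506), a small-subunit ribosomal protein gene, had 1665, 1500, 1651 and 1754 CPM in Crep, against 2680, 2409, 2066 and 3122 CPM in Cren (log2 fold change -0.68, SE 0.14, edgeR adjusted p = 0.0182). Without Crep 2, Crep 3 or Cren 1 its adjusted p was 0.0548 to 0.169.

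The same contrast in the matched cells with 0 Mki67 UMIs gave log2 fold changes of the same sign for all 6 genes: 1.5 for Klrg1, 0.52 for Nkg7, 0.88 for Phf21a, -1.76 for Trat1, -0.54 for Zfp36l1 and -0.39 for Rps26, of which Nkg7 passed (edgeR adjusted p = 0.0416). The difference of the differences was tested and missed the threshold for each of the 6. The nearest was Zfp36l1, with -0.78 (SE 0.21, edgeR adjusted p = 0.251). Of the other genes named for this contrast, 3 passed in matched cells: Tcf7 (-1.27, edgeR adjusted p = 0.000184), Rexo5 (1.29, adjusted p = 0.00476) and Pdcd1 (-1.43, adjusted p = 0.0446), while Bcl6 had 0.99 (adjusted p = 0.0804). The 6 genes are therefore not shown to be particular to cells with an Mki67 UMI.

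**Figure D5:**
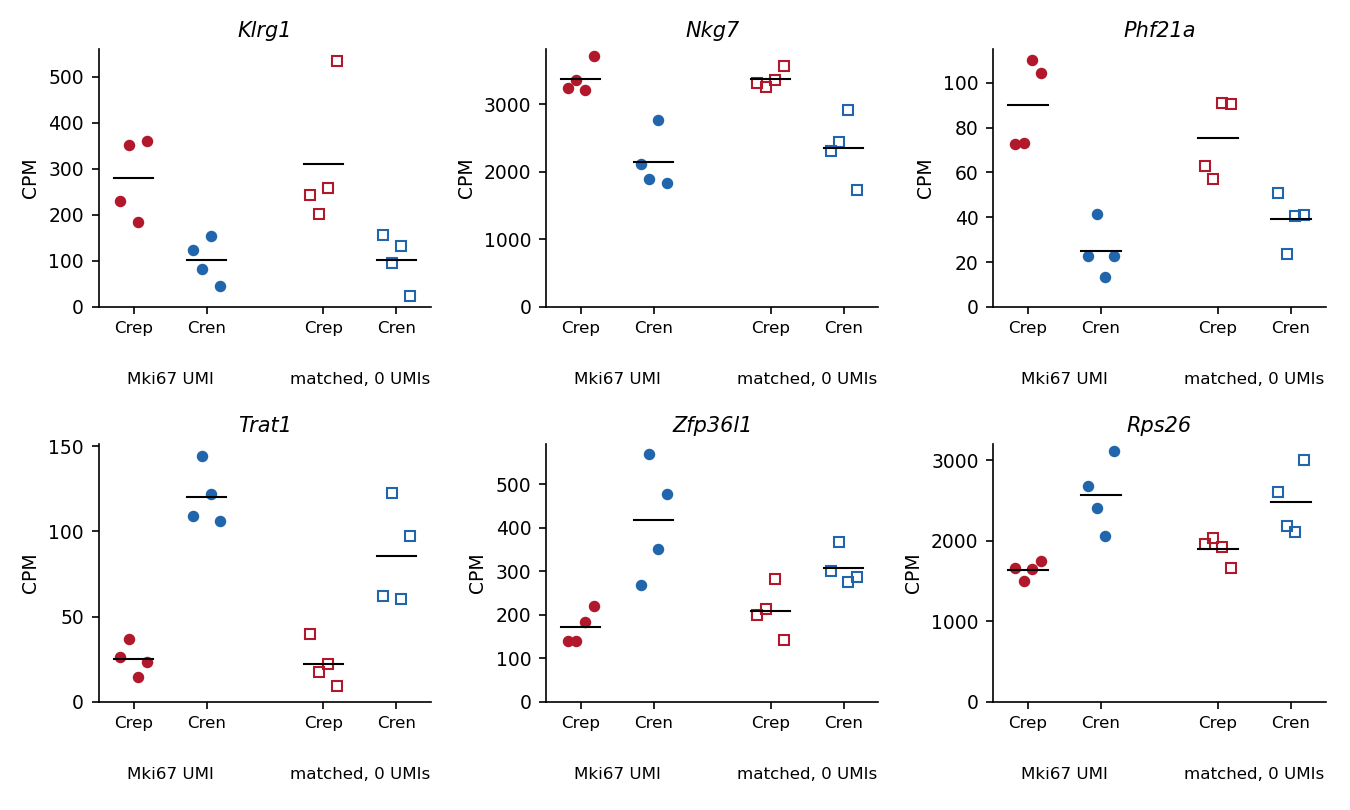
CPM (y axis) of the 6 genes that passed between Crep and Cren among cells with an Mki67 UMI, 1 point for each hashtag (Crep red, Cren blue), with black lines at group means. Filled circles are cells with an Mki67 UMI and open squares the matched cells with 0 UMIs. In the filled circles no Crep point overlaps a Cren point for any of the 6 genes, which were chosen for that contrast.

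The gene lists were then counted in the same contrast, Crep over Cren. Of 22 cytotoxic genes tested between the groups, 18 were positive, with a median log2 fold change of 0.58, against -0.01 over all genes, and Klrg1 and Nkg7 passed. At an unadjusted p under 0.05, 14 of the 22 were higher, against 3.11% of all genes. Their summed level was 44940 to 56460 CPM in Crep and 21470 to 39900 CPM in Cren. Gzmb, the granzyme B gene, had 3720, 2898, 2334 and 3426 CPM in Crep, against 1119, 826, 1967 and 287.9 CPM in Cren, without overlap, but missed the threshold (log2 fold change 1.5, SE 0.50, edgeR adjusted p = 0.592). Of 16 exhaustion genes, 11 were negative (median -0.46), of 14 stem-like genes 11 were negative (median -0.28), and of 27 cytoskeleton, S100 and annexin genes 22 were positive (median 0.27), with 0 passing in each. Ctla4, an inhibitory receptor gene, had -0.95 (edgeR adjusted p = 0.0692), and Tcf7 had 68.4 ± 9.47 CPM in Crep hashtags and 143 ± 26.5 CPM in Cren hashtags (SD, n = 4 each; log2 difference -1.09, edgeR adjusted p = 0.107). Of 82 ribosomal protein genes 79 were negative (median -0.21), 19 of them at an unadjusted p under 0.05, against 3.75% of all genes, and Rps26 passed.

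S phase genes had mostly positive values, 26 of 34 with a median of 0.25, while 49.12% of all genes were positive, and 0 passed. At an unadjusted p under 0.05, 2 of them were higher and 2 lower. Tyms was among the 8 negative ones (log2 fold change -1.002, edgeR adjusted p = 0.756). The S phase sum was 1945 to 2211 CPM in Crep and 1779 to 1895 CPM in Cren, ranges that do not meet. Such a gap was not particular to S phase. Exhaustion genes summed to 1189 to 1545 CPM in Crep and 1638 to 2066 CPM in Cren. Cytokine receptor and signalling genes summed to 5819 to 5952 CPM in Crep and 5465 to 5741 CPM in Cren. G2 and M phase genes were split, with 14 of 31 positive (median -0.04) and sums of 2892 to 3185 CPM in Crep and 2935 to 3316 CPM in Cren. Pdcd1, the PD-1 gene, differed by -0.60 (log2, SE 0.94, edgeR adjusted p = 0.957), and Rexo5, an RNA exonuclease gene, by 1.95 (SE 0.55, edgeR adjusted p = 0.175). Cd4, with 5 UMIs in these cells, was too low to test.

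Whether the Mki67 difference was unlike in Crep and Cren was tested as an interaction, which 2 of 7456 genes passed, a background of 0.0268%, with 339 genes (4.55%) at an unadjusted p under 0.05. Trbv19, another beta chain variable segment (chromosome 6, 41178589 to 41179048), had 691.9, 241.5, 594.4 and 104.5 CPM in Crep cells with an Mki67 UMI, against 352.1, 165.5, 355.6 and 11.61 CPM in their matched cells. It was higher in 4 of 4 Crep hashtags. In Cren it had 0, 0, 1 and 2 UMIs in cells with an Mki67 UMI, against 45, 19, 17 and 28 UMIs in matched cells, of which there are 5 for each. The interaction was 3.64 on the log2 scale (SE 0.58, edgeR adjusted p = 4.64e-05), and its size rests on those 3 Cren UMIs. Within Crep alone the log2 fold change was 0.85 (SE 0.14, edgeR adjusted p = 3.02e-06), and within Cren alone it was -2.81 (SE 0.63, edgeR adjusted p = 0.181). How many cells held the Trbv19 UMIs is not given here. Ifitm3, an interferon-induced antiviral gene, had 15.61, 29.28, 36.69 and 23.23 CPM in Crep cells with an Mki67 UMI, against 41.8, 84.95, 98.44 and 41.8 CPM in their matched cells, lower in 4 of 4. In Cren it had 118.3, 0, 76.69 and 0 CPM, against 34.59, 9.658, 37.08 and 19.78 CPM. Ifitm3 passed within neither group alone, with -1.42 in Crep (SE 0.36, edgeR adjusted p = 0.0528) and 1.04 in Cren (SE 0.38, edgeR adjusted p = 0.986). The interaction was -2.50 (SE 0.49, edgeR adjusted p = 0.00619), and without Cren 1 it was -1.82 (adjusted p = 0.724). Without Crep 1, Crep 2, Crep 3 or Cren 3 its adjusted p was 0.0558 to 0.131. Neither gene passed with DESeq2, and the count of calls was 1 without Crep 1, Crep 3 or Cren 3, 5 without Crep 4 and 4 without Cren 2.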

How the data were processed

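The authors deposited whole-number UMI counts per gene and cell (12798 genes, 8562 cells, 25614763 UMIs; 2635241 to 4201265 per hashtag) with an annotation of hashtag, condition and cluster. The mitochondrial share of each cell is a percent of its UMIs, as deposited by the authors. Per the submitters' processing notes, the tools were bcl2fastq 2.20.0.422, Cell Ranger 7.0.0 and Seurat 4.3.0, with mm10. No doublet caller was run here, and how doublets were removed is not given in the sources used here.

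Each cell with an Mki67 UMI was matched to 5 cells with 0 from its hashtag (median gap 7 UMIs, largest 607). Counts were summed per hashtag and set, and tested with edgeR 4.0.16 (quasi-likelihood, TMM, robust, Benjamini-Hochberg adjustment, threshold 0.05), with mean CPM of at least 10, or 20 between conditions. The hashtag was a block because both sets come from the same hashtag. Single measures had exact permutation tests (scipy 1.17.1). Intervals are 95% Wilson and cover counting error only.

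Genes named were the largest changes past the threshold (average log2 CPM of at least 6, same sign in at least 7 hashtags), up to 4 per list, up to 6 per direction between conditions, and Bcl6, Pdcd1, Gzmb, Tcf7, Cd4 and Rexo5. The members and lists were chosen with earlier results of these data known. The fits were run on simulated data without differences between hashtags, in which only genes at higher levels than Top2a, Stmn1 and Tyms were changed. Those runs therefore do not cover such low-count genes. Coordinates are GENCODE vM21 on GRCm38, the assembly that mm10 names. Alternatives included DESeq2 1.42.0 and limma 3.58.1. Values of 1 gene that passed are not reported here.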

Additional observations from a re-analysis of the deposited data

Results flagged for a closer look

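In 48 groups of 4 hashtag values, 3 held a value far from the others, which is near the 1 in 20 groups that chance gives. All 3 were in Cren 3. After standardising for depth, its share of cells with an Mki67 UMI was 5.504%, against 3.924%, 4.126% and 4.112% in the other Cren hashtags. Among its cells with an Mki67 UMI, Pdcd1, which encodes PD-1, had 126.3 CPM, against 22.75, 34.42 and 37.89 CPM in the others. The Pdcd1 level was as high in Crep 4, at 127.7 CPM, against 26.01, 36.6 and 0 CPM in Crep 1 to 3. It was 121.2 CPM in the matched cells of Cren 3, so it is not particular to cells with an Mki67 UMI. Tcf7, a stem-like factor gene, had 103.8 CPM in Cren 3 cells with an Mki67 UMI, against 159.3, 158.3 and 151.5 CPM in the other Cren hashtags.

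The difference between cells with an Mki67 UMI and matched cells was unlike in Crep and Cren for 2 genes by the test of the interaction, with log2 values of 3.64 for Trbv19 and -2.50 for Ifitm3. Trbv19 passed in 8 of 8 fits that left out a hashtag and Ifitm3 in 3 of 8, with an adjusted p of 0.724 without Cren 1.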

How the results depend on the processing

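The 9 genes that differed between cells with an Mki67 UMI and matched cells became 0 with DESeq2 (131 at an unadjusted p under 0.05), 36 with limma-voom, 86 without a filter on low counts, 1 with edgeR's filterByExpr, 2 at a mean CPM of at least 30, 1 with 1 matched cell, 3 matched within fine clusters and 172 for cells with at least 2 Mki67 UMIs. Of those 172 genes, 3 were higher and 169 lower. That last set of 28 cells had sums of 1 to 6 cells per hashtag, with 1 cell of 2853 UMIs in Crep 4. In this set the median log2 fold change was -0.48 over all genes, -0.25 over S phase genes and -0.35 over G2 and M phase genes. Ccl3 reversed to 0.73 in it (adjusted p = 0.717). The split of 2 higher and 7 lower became 2 and 0 without TMM scaling and 2 and 0 without cluster 9, settings chosen after seeing the data, as was matching on UMIs outside ribosomal genes (5 higher, 2 lower). With no replicate block for the hashtag, which pairs the sets, the count was 0 (296 at an unadjusted p under 0.05). Leaving out a hashtag gave 0 to 16 genes. Matched on UMIs outside ribosomal genes, the gap in genes per cell was 9.096, with p = 0.102 by the exact test. The mitochondrial gap ranged from 0.02273 to 0.05331 points when a hashtag was left out.

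Between Crep and Cren, 6 genes became 36 without a filter and 3 at 2 or more UMIs (0 of them shared), and 2 to 22 when a hashtag was left out. The interaction count of 2 became 0 with DESeq2 (93 at an unadjusted p under 0.05), 1 matched within fine clusters, 6 without a filter, and 1 to 5 when a hashtag was left out. The cause of these moves was not tested. No paired analysis was possible between Crep and Cren because their hashtags share only a number given within each group. The share of cells with an Mki67 UMI missed the threshold in every setting run (exact p 0.0571 to 0.857). A measure of expanded T cell receptor clones was planned and not run, since the annotation used here has no such column. With 1 Mki67 UMI in 328 of 356 cells, depth limits which cells are found.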

Other observations

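Of 8562 cells, 11 had a UMI of at least 4 of the 11 rarely detected proliferation markers, and all 11 had 0 Mki67 UMIs. An Mki67 UMI was found in 4.158% of all cells and in 8.285% of those in the highest of 10 bins of total UMIs. Those shares come from cells not chosen by their markers. Whether 0 among the 11 cells is unusual was not tested. They came from 7 hashtags, 4 cells in Crep and 7 in Cren, and from 6 clusters, with 3 cells each in clusters 6 and 10, 2 in cluster 8 and 1 each in clusters 0, 1 and 5. Their median total was 6048 UMIs per cell, against 3343 in cells with an Mki67 UMI, so they were also deeply counted. Over 119 other G2 and M phase genes their median summed level was 4410 CPM, against 2923 CPM in cells with an Mki67 UMI and 2917 CPM in matched cells. Over 96 other S phase genes it was 1757 CPM, against 1674 and 1708 CPM. These cells were chosen by their values, so no test is given.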
